A study of Mus musculus with 19 samples.

Results

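The MTG (ETO) corepressor family has 3 genes in the mouse, Cbfa2t2, Cbfa2t3 and Runx1t1, and the peaks described here are all CBFA2T2 chromatin immunoprecipitation (ChIP-seq) peaks inside these genes or within 50 kb of them. That rule took 11 of 15192 peaks, 4 of the 6920 peaks of H3.3WT cells and 7 of the 8272 peaks of H3.3K27M cells. The cells were NE-4C, a line of mouse neural stem cells deficient in p53. In both genotypes H3f3a, which codes for histone H3.3, had been knocked out and an HA-tagged H3.3 was stably expressed in its place. The tagged H3.3 was the wild-type protein in H3.3WT cells and carried methionine instead of lysine 27 in H3.3K27M cells. The labels describe 19 libraries from 3 genotypes. Of these, 2 were used, 1 CBFA2T2 ChIP library of each of these genotypes, made with the antibody Bethyl A302-089A. A line that also lacked Cbfa2t2, together with the HA, H3K4me3, H3K27me3 and input libraries, was not analysed here. With 1 library per genotype there was no test of genotype. Peak lists do not measure expression, so the cell type was not checked against its markers.

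MTG proteins are corepressors that share 4 conserved regions known as nervy homology regions, the last of them a MYND zinc finger. They do not recognise DNA themselves but are brought to it by transcription factors such as E proteins, GFI1 and zinc finger proteins, and they recruit NCoR, SIN3A and histone deacetylases. Runx1t1, also called ETO or MTG8, was found as the fusion partner of RUNX1 in acute myeloid leukaemia. Cbfa2t3 (ETO2, MTG16) acts in blood cell differentiation. Cbfa2t2 (MTGR1) codes for the protein that the antibody was raised against.

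The promoter of Cbfa2t2 carried no CBFA2T2 peak in either list. Neither did either of the 2 annotated start sites of Cbfa2t3. The RefSeq promoter windows (GRCm38.p6, the mm10 assembly) span 250 bases before to 50 bases after a start site. They are shown because the H3.3K27M peak at a neighbouring gene, E2f1, overlaps the edge of such a window. The summit of that peak, at 154569885, lies outside the window but inside the span of E2f1. The printed E2f1 window therefore belongs to a start site inside the gene, not at its outer end. CpG dinucleotides are in capitals, and each sequence reads 5′ to 3′ along the gene's strand. The windows lie at chr2:154436234-154436533 on the plus strand for Cbfa2t2, at chr8:122699060-122699359 and chr8:122678126-122678425 on the minus strand for the outer and inner start of Cbfa2t3, and at chr2:154569377-154569676 on the minus strand for E2f1. Runx1t1 was not found in that table.
Cbfa2t2: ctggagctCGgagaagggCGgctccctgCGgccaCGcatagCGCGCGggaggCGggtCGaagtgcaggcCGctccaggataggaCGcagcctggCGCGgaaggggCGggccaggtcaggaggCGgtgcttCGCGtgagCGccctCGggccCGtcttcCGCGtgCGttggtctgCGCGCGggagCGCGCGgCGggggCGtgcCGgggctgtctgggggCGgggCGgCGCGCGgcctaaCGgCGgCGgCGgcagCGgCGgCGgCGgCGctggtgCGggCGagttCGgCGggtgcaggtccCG
Cbfa2t3 outer start: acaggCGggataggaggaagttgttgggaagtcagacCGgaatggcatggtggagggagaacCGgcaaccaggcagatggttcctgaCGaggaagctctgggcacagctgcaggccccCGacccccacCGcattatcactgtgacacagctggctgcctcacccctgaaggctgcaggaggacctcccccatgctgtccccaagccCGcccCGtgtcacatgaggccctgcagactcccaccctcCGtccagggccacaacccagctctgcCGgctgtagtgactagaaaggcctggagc
Cbfa2t3 inner start: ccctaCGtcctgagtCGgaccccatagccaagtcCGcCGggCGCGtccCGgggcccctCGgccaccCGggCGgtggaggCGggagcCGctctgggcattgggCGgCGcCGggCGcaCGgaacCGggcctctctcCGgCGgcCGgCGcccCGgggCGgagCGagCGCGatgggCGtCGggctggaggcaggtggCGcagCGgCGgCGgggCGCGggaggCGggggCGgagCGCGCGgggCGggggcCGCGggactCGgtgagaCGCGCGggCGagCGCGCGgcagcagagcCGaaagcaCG
E2f1: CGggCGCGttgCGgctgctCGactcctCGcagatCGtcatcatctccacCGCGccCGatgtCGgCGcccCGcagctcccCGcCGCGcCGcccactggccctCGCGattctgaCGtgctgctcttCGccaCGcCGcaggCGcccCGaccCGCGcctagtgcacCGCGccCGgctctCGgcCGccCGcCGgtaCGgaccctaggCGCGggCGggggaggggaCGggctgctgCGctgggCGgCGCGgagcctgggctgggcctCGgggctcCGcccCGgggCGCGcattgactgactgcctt

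The Cbfa2t2 window held 51 CpG dinucleotides, more than 99.1% of 21262 promoter windows of protein-coding genes. The inner Cbfa2t3 window held 53 CpG and the E2f1 window 48, whereas the outer Cbfa2t3 window held 10. Across the genome 23.6% of these windows were overlapped by a peak of the H3.3WT list and 27.4% by a peak of the H3.3K27M list. Among the 191 windows with at least as many CpG as Cbfa2t2, 31.4% and 46.1% were. Among these 191 windows those without a peak, like that of Cbfa2t2, were thus the larger share in both lists. Among windows with 25 to 29 CpG, 45.4% (H3.3WT) and 52.7% (H3.3K27M) were overlapped.

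**Figure D1:**
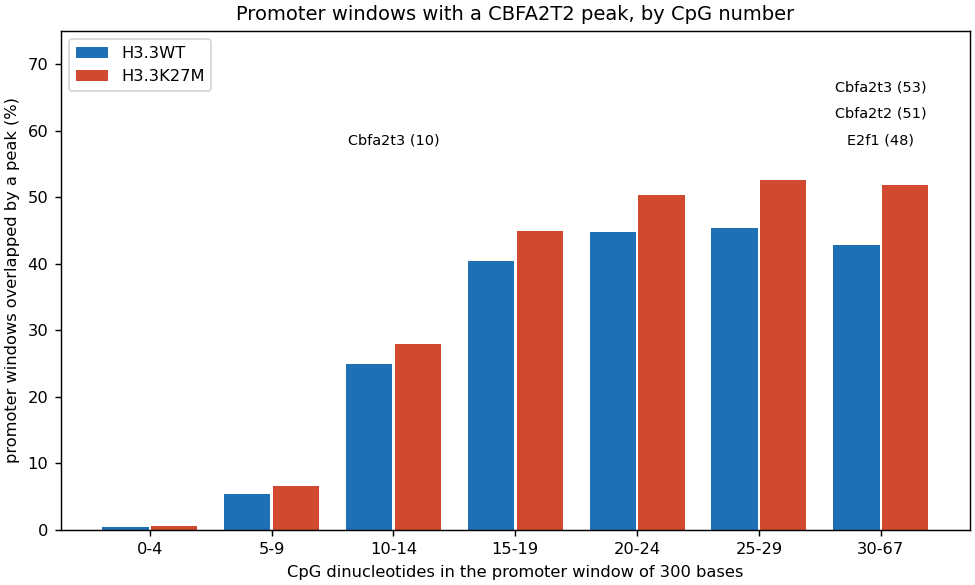
Share of 21262 promoter windows of 300 bases that a CBFA2T2 peak overlaps (bars, percent), by the number of CpG dinucleotides in the window, for H3.3WT (blue) and H3.3K27M (red). The names mark where the printed windows fall, with their CpG number. From 15 CpG upwards between 40.5 and 52.7% of windows were overlapped.

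Motifs of factors known to bring MTG proteins or to mark CpG-rich promoters were looked for in the 4 windows on both strands. The RUNX motif and the TATA box, which are neither, were looked for as well. None held the ETS letters CCGGAAG (in 11.6% of all windows), the NRF1 letters GCGCATGC (3.51%), the Kaiso letters TCCTGCNA (4.74%), the GFI1 letters AATCNNNGC (10.7%), the RUNX letters TGTGGT (14.97%) or the TATA box TATAAA (12.6%). The outer Cbfa2t3 window held 4 E-boxes, CANNTG, which 69.02% of windows have. Among its E-boxes 2 were CAGCTG or CAGGTG, the forms bound by the E proteins E2A and HEB, found in 31.9% of windows. The inner Cbfa2t3 window held 1 such E-box and 1 CCAAT box (38.2% of windows). The Cbfa2t2 and E2f1 windows held no E-box and no CCAAT box. Letters in a window describe the sequence and show no binding.

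Cbfa2t2 itself (gene 12396, chromosome 2, 154436098 to 154539356, plus strand) held 2 peaks in each list, and both were shared between the lists. Among 21883 protein-coding genes, 1.68% held at least 2 internal peaks of the H3.3WT list and 2.45% of the H3.3K27M list. Cbfa2t2, at 103259 bp, is longer than 89.3% of protein-coding genes, and this share was not derived for genes of like length. The upstream internal peak spanned 154465955 to 154466459 (H3.3WT) or 154465949 to 154466383 (H3.3K27M). Its summit lay 29727 and 29662 bp after the annotated start site. The downstream peak spanned 154534874 to 154535190 and 154534872 to 154535198, with summits 98554 and 98567 bp after the start site. It lay 4318 and 4305 bp before the far end of the gene, at 95.8% of its length in both lists. The annotation used here gives no exons, so these positions are not assigned to an exon or intron.

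The deposited fold, the caller's enrichment over local background, at the upstream peak was 9.12 for H3.3WT and 13.3 for H3.3K27M. At the downstream peak it was 15.9 and 31.1. Ranked by fold, the downstream peak was number 559 of 6920 in H3.3WT and number 88 of 8272 in H3.3K27M. Ranked by −log10 q, at 132.7 and 223.9, it was number 109 and number 58. It was also narrow, at 317 and 327 bp. Of the other peaks with −log10 q of at least 100, 3 of 201 (H3.3WT) and 1 of 264 (H3.3K27M) were narrower, and their median widths were 798 and 862.5 bp.

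**Figure D2:**
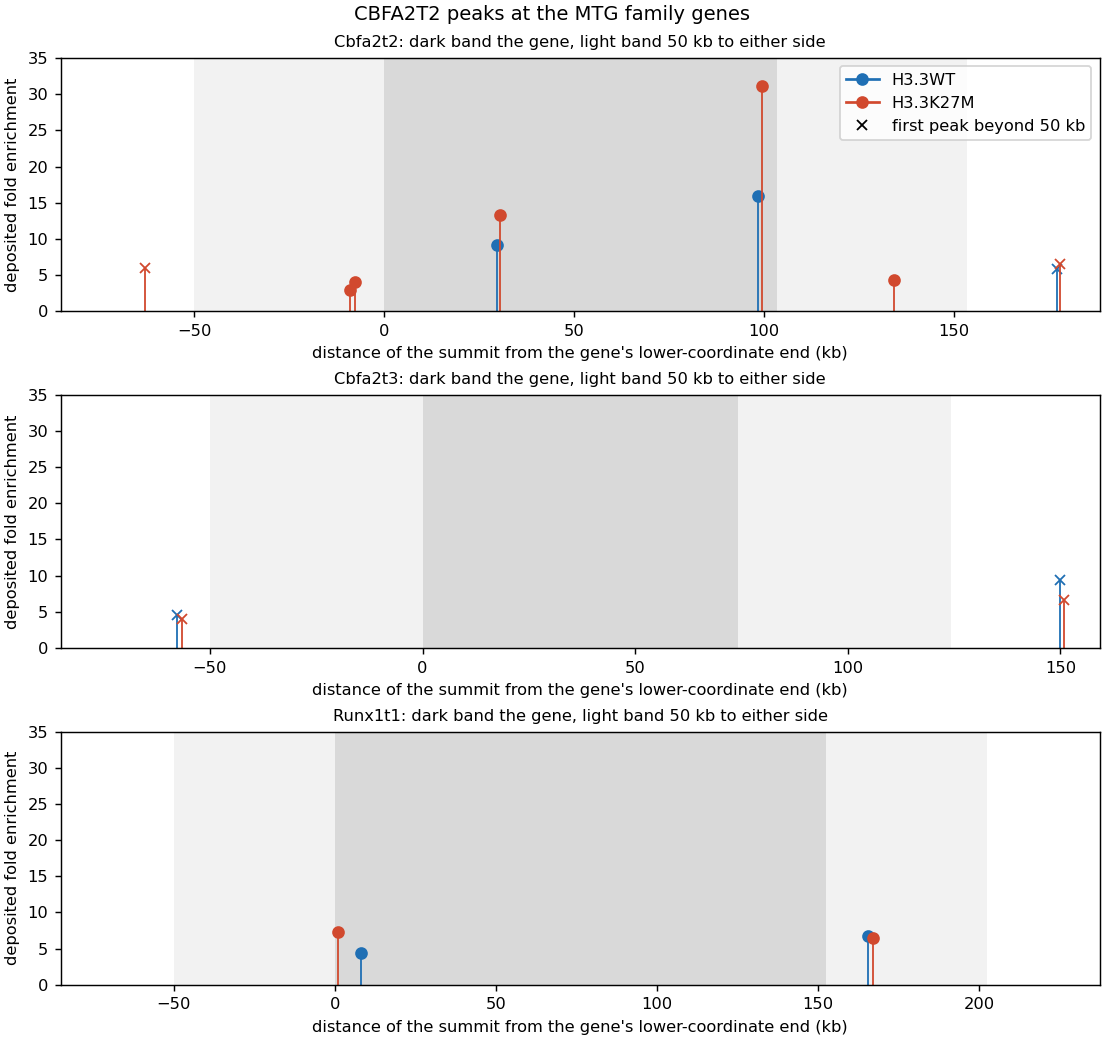
Deposited fold enrichment (vertical axis) of CBFA2T2 peaks against the distance of the summit from the lower-coordinate end of Cbfa2t2, Cbfa2t3 and Runx1t1 (kb), H3.3WT in blue and H3.3K27M in red, drawn slightly apart. Circles are peaks inside the gene (dark band) or within 50 kb (light band), crosses the first peaks beyond. Cbfa2t2 has the highest peak, 31.1 fold in H3.3K27M, and Cbfa2t3 has none in its bands.

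Fold and −log10 p together fix the numbers behind a peak, if the caller's fold is the ChIP pileup plus 1 over the local background plus 1 and its p the Poisson tail above the pileup. A single whole number of ChIP fragments met both values within 0.0005 of −log10 p for 99.7 and 99.8% of peaks in the H3.3WT and H3.3K27M lists, including all 11 at the MTG genes. The local backgrounds so obtained had a floor of 0.752 fragments for H3.3WT and 0.917 for H3.3K27M, the genome-wide background of each library. Above it most came in steps of whole input reads worth 0.299 and 0.385 fragments. These values are implied by the deposited ones and were not themselves deposited. Dividing a pileup by the floor puts both libraries on a common scale. Over 5413 shared pairs of peaks the median ratio of H3.3K27M to H3.3WT on that scale was 1.003 (quartiles 0.850 and 1.18).

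At the downstream Cbfa2t2 peak 162 ChIP fragments covered the summit in H3.3WT (95% exact Poisson interval 138 to 189) and 198 in H3.3K27M (171 to 228). Over the genome-wide background these were 215.3 and 215.9, a ratio of 1.003 (95% interval 0.811 to 1.24). The ChIP pileup thus differed by less than its counting error, although the deposited folds were 15.9 and 31.1. The local background differed: it was 9.26 fragments in H3.3WT, from 31 input reads (21.1 to 44.002), and 5.40 in H3.3K27M, from 14 input reads (7.65 to 23.5). Set against the size of the input libraries, the input was 2.04 times as high in H3.3WT (95% interval 1.05 to 4.15). The H3.3WT background lay at percentile 98.8 of its list and the H3.3K27M background at 86.4. For a ratio of local background, H3.3WT over H3.3K27M, each background was first divided by the genome-wide background of its library. Among shared pairs the median of this ratio was 0.922 (quartiles 0.687 and 1.20). In 97.3% of pairs it was lower than the 2.09 of this peak. These intervals cover counting error of 1 library each, not the spread between cultures. The local background at this peak was 12.3 and 5.88 times the genome-wide level. Why the inputs differ was not tested. Nor was it tested whether the reads at this peak, and at the pseudogene peak described below, come from those genomic sites, so the folds, pileups and ranks of these peaks do not by themselves show binding there.

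At the upstream Cbfa2t2 peak the counts were small, 18 fragments (10.7 to 28.4) for H3.3WT and 30 (20.2 to 42.8) for H3.3K27M. Over the genome-wide background they were 23.9 and 32.7, with a ratio of 1.37 (95% interval 0.738 to 2.61), so a difference was not detectable at this depth. The local background was 1.08 and 1.32 fragments, or 1.44 times the genome-wide level in both libraries. This peak therefore stood on little input, whereas the downstream peak stood on much of it.

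**Figure D3:**
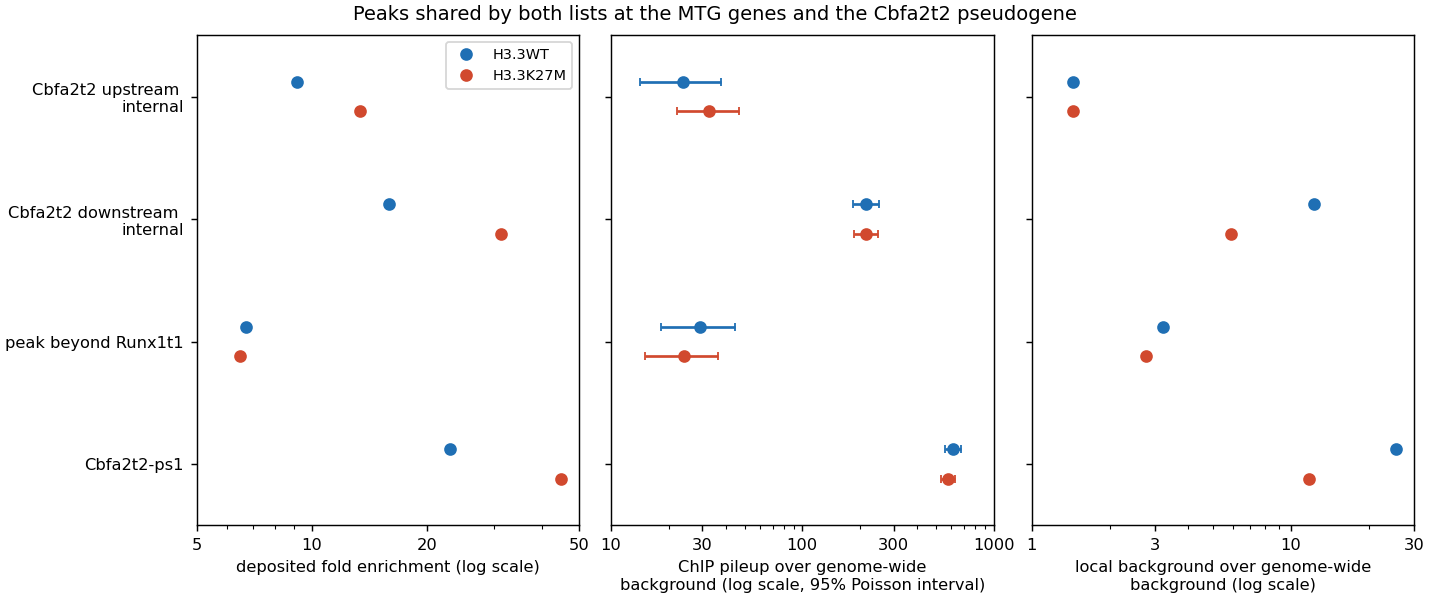
The 3 peaks at MTG genes that both lists share, and the pseudogene peak, in H3.3WT (blue) and H3.3K27M (red), all on log axes. Left, deposited fold; middle, implied ChIP pileup over the genome-wide background with 95% exact Poisson intervals; right, local over genome-wide background. At the downstream Cbfa2t2 peak and at Cbfa2t2-ps1 the folds differ, the intervals of the pileups overlap, and the local background is higher in H3.3WT.

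A pseudogene of the family, Cbfa2t2-ps1 (chromosome 5, 60231378 to 60232203), is the only pseudogene named after a member. Of 10609 pseudogenes, 0.415% were overlapped by an H3.3WT peak and 0.971% by an H3.3K27M peak. The peak at Cbfa2t2-ps1 spanned 739 and 740 bp and covered 88.9 and 88.98% of the pseudogene. It ranked number 11 and number 6 by −log10 q. Its summit carried 462 ChIP fragments (421 to 506) in the H3.3WT library and 528 (484 to 575) in the H3.3K27M library. Over the genome-wide background these were 614 and 576, with a ratio of 0.938 (95% interval 0.826 to 1.06). The deposited folds were 23.0 and 44.9, and the local background came from 64 input reads (49.3 to 81.7) for H3.3WT and 28 (18.6 to 40.5) for H3.3K27M. Relative to input library size that was 2.11 times as high in H3.3WT (1.33 to 3.41), close to the 2.04 at the downstream Cbfa2t2 peak. Its sequence was not compared with that of Cbfa2t2 here, and how the authors placed reads that fit more than 1 site is not given in the sources used here.

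In H3.3WT, 277 other peaks had a fold within 10% of the downstream Cbfa2t2 peak. Their median −log10 q was 49.0 and the highest 98.1, against 132.7, and their local background reached at most 5.68 fragments, against 9.26. In H3.3K27M the 50 such peaks had a median −log10 q of 149.6 and a highest of 327, so that the 223.9 of the Cbfa2t2 peak lay inside their range. The plot of pileup against local background shows both libraries.

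**Figure D4:**
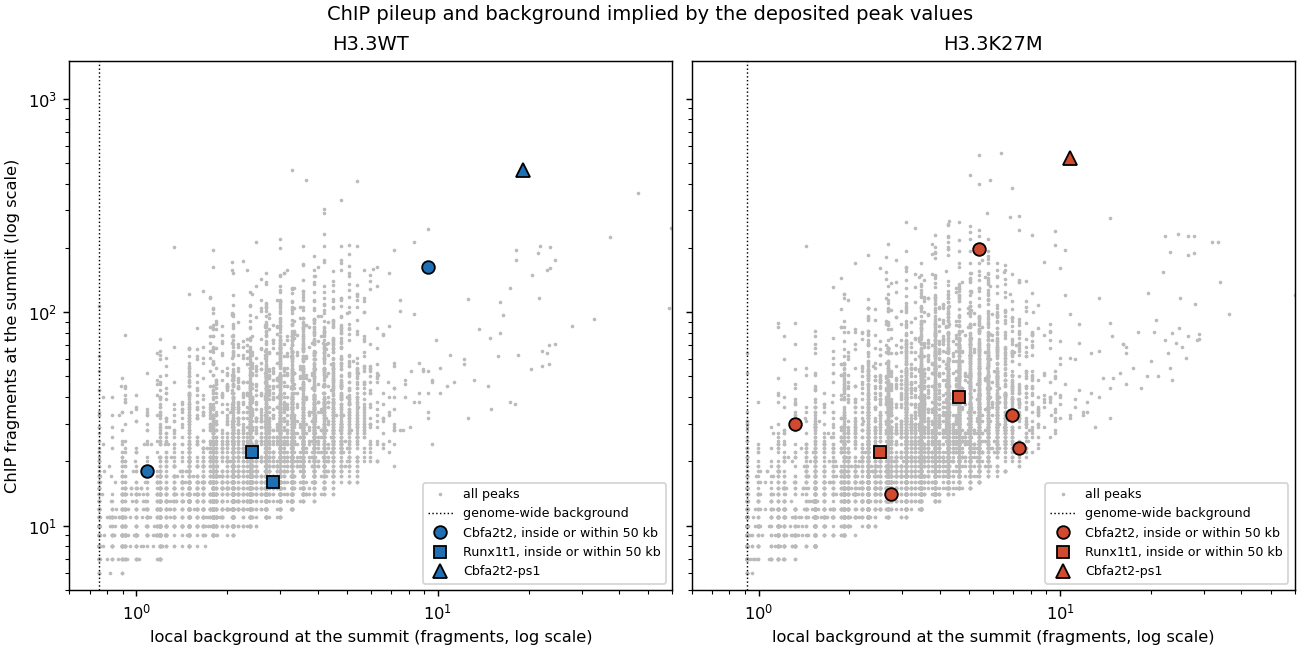
ChIP fragments at the summit against local background, both implied by the deposited values and on log axes, for all peaks (grey) of H3.3WT (left) and H3.3K27M (right). Circles are peaks at Cbfa2t2, squares at Runx1t1, triangles at Cbfa2t2-ps1, and the dotted line is the genome-wide background of 0.752 and 0.917. The downstream Cbfa2t2 peak, at 162 and 198 fragments, lies above and to the right of most peaks in both lists, at percentiles 98.8 and 86.4 of local background.

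Outside Cbfa2t2 but within 50 kb, the H3.3WT list held no peak and the H3.3K27M list held 3. Of these, 2 lay 9205 and 7804 bp before the gene over Gm52564, an uncharacterised long noncoding RNA gene, at 154426456 to 154426893 and 154427834 to 154428294. Both were weak, with folds of 2.88 and 3.99 and −log10 q of 3.14 and 3.66. They had 23 and 14 fragments on local backgrounds of 7.32 and 2.76. The remaining peak, at 154569611 to 154570227, had its summit within 1 kb of an end of E2f1. This gene codes for a transcription factor of the G1 to S transition. The peak overlapped the edge of the printed E2f1 window, with its summit, at 154569885, outside that window. It had a fold of 4.28, −log10 q of 9.48 and 33 fragments (22.7 to 46.3) on a local background of 6.94, at percentile 96.3 of its list. No H3.3WT peak lay within 34421 bp of it. A gene end marked in H3.3K27M and not in H3.3WT occurred at 6.39% of protein-coding genes, and the reverse at 2.60%.

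Cbfa2t3 (gene 12398, chromosome 8, 122625136 to 122699332, minus strand) had no peak inside it or within 50 kb in either list. Such a peak was present for 53.3% (H3.3WT) and 57.8% (H3.3K27M) of all protein-coding genes. Among the 4223 genes of 50 to 250 kb, which includes all 3 MTG genes, the shares were 53.6 and 61.1%. Aprt, Galns, Trappc2l and Pabpn1l, the other 4 protein-coding genes in the Cbfa2t3 window, had no peak within it either. The nearest peaks on the lower-coordinate side lay 56955 bp away in H3.3WT and 56862 bp in H3.3K27M, at an end of the replication licensing gene Cdt1, with folds of 4.53 and 4.07. On the other side they lay 75924 and 75955 bp away, at an end of the mitochondrial acyl-CoA synthetase gene Acsf3, with folds of 9.33 and 6.59. Both flanking sites were therefore present in both lists, and the stretch without peaks ended at the same 2 genes.

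Runx1t1 (gene 12395, chromosome 4, 13742628 to 13895056) held 1 internal peak in each list, at different positions. In H3.3K27M it spanned 13742674 to 13743784, with its summit 433 bp inside the lower-coordinate end of the gene. It was 1111 bp wide, wider than 95.5% of its list, with a fold of 7.29 and −log10 q of 20.6. In H3.3WT the internal peak spanned 13750546 to 13751375, 8621 bp inside the same end at its summit, with a fold of 4.43 and −log10 q of 4.86. The 2 peaks were 6762 bp apart. Internal peaks were present in 27.9% (H3.3WT) and 32.6% (H3.3K27M) of all protein-coding genes, and in 32.1 and 39.5% of those of 50 to 250 kb. The table used here gives no strand for Runx1t1, so its end was not assigned to the start of transcription.

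The H3.3K27M peak at the Runx1t1 end had 40 fragments (28.6 to 54.5) on a local background of 4.62, or 43.6 times the genome-wide level. The level of H3.3WT cells at this place is not known from a peak list. The weakest H3.3WT peak with a local background between 4 and 5 fragments had 14 fragments, or 18.6 times the genome-wide level. That range was taken from the H3.3K27M background. The H3.3WT background at this place is not known, so the value is not a matched threshold for the site. End peaks were found for 24.8% (H3.3WT) and 28.6% (H3.3K27M) of all protein-coding genes, and for 24.4 and 30.5% of those of 50 to 250 kb. Of the 3 MTG genes only Runx1t1 had one, and in H3.3K27M alone.

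Beyond the far end of Runx1t1 both lists held a peak, 13412 and 13546 bp outside the gene, spanning 13908468 to 13909325 (H3.3WT) or 13908602 to 13909379 (H3.3K27M). It lay 593789 and 593275 bp from Slc26a7, the nearest other protein-coding gene, and no protein-coding gene other than Runx1t1 reached its window. Folds were 6.73 and 6.51, and 22 fragments covered the summit in each list (13.8 to 33.3). Over the genome-wide background this was 29.2 and 23.99, a ratio of 0.821 (95% interval 0.433 to 1.55). The summits were 514 bp apart in this wide, low peak. The next peaks on that side lay 931142 and 931118 bp away, at an end of the deubiquitinase gene Otud6b. On the other side they were 343318 bp away in H3.3WT and 176531 bp in H3.3K27M.

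Of the 4 H3.3WT peaks at the MTG genes 3 were shared with H3.3K27M, against 79.4% of the whole list, and of the 7 H3.3K27M peaks 3 were shared, against 66.3%. The unshared H3.3WT peak had a fold of 4.43, and the 4 unshared H3.3K27M peaks had folds of 2.88 to 7.29. The upstream and downstream internal peaks of Cbfa2t2 were the only shared peaks inside a member.

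Genes were compared by the fold of the strongest internal peak of each list, which need not be the same site in both. The genes most like Cbfa2t2 among 5361 genes with an internal peak in each were Bicd2 (folds of 16.6 and 31.7), Cdca8 and 9930104L06Rik. The last 2 had one peak of 15.6 and 29.4 fold in common. Those most like Runx1t1 (4.43 and 7.29 fold) were Eif4g1 (4.42 and 7.29), Nfatc2ip (4.44 and 7.25) and Tmem165 (4.43 and 7.39). The 2 folds of Runx1t1 come from different, unshared peaks 6762 bp apart. Likeness was the distance of log2 fold over the 2 libraries, 0.066 for Bicd2 and 0.003 for Eif4g1, and with 2 values per gene it is a description only.

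Genes for partners of MTG proteins and for other corepressor families were counted by peaks at their ends. Over 4 lists of partners and other corepressors, 16 of 46 genes (34.8%) had an end peak in the H3.3WT list. In the H3.3K27M list 21 (45.7%) had one, and 15 had one in both lists. Of all protein-coding genes 24.8 and 28.6% had one. Other corepressor families, with 12 genes, gave 6 of the 16 and 9 of the 21, so the pooled shares do not describe the partners alone. Corepressor partners had 4 and 6 of 10, with the highest sums of both folds at the NCoR complex genes Gps2 (17.8 and 13.8 fold), Tbl1x (6.47 and 11.6 fold) and Tbl1xr1 (5.01 and 9.49 fold). Their median folds were 7.52 and 6.79, where all genes with an end peak had 6.92 and 6.29. The corepressor genes Hdac3, Sin3a and Sin3b had none.

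Of 17 DNA-binding partners 5 had an end peak in each list, 4 of them in both. The share over all protein-coding genes was 24.8% (H3.3WT) and 28.6% (H3.3K27M). By the sum of both folds the first 3 were the E protein gene Tcf3 (10.4 and 4.22 fold), Zbtb16 (4.61 and 5.73 fold) and the E protein gene Tcf12 (5.74 and 3.60 fold). In H3.3K27M alone Tcf3 and Tcf12 had the lowest folds of the 5 marked genes. Tcf4, another E protein gene, was among the 11 with no end peak in either list. Of the 7 genes Runx1, Runx2, Runx3, Cbfb, Ldb1, Lmo2 and Lmo4, only Lmo4 had an end peak, at 3.10 and 5.77 fold. Of 12 genes of other corepressor families 6 were marked in H3.3WT cells and 9 in H3.3K27M cells, among them Tle4 (7.998 and 5.33 fold), Rcor1 (6.67 and 3.35 fold) and Atn1 (3.29 and 6.10 fold). Their median folds were 4.80 and 4.33.

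**Figure D5:**
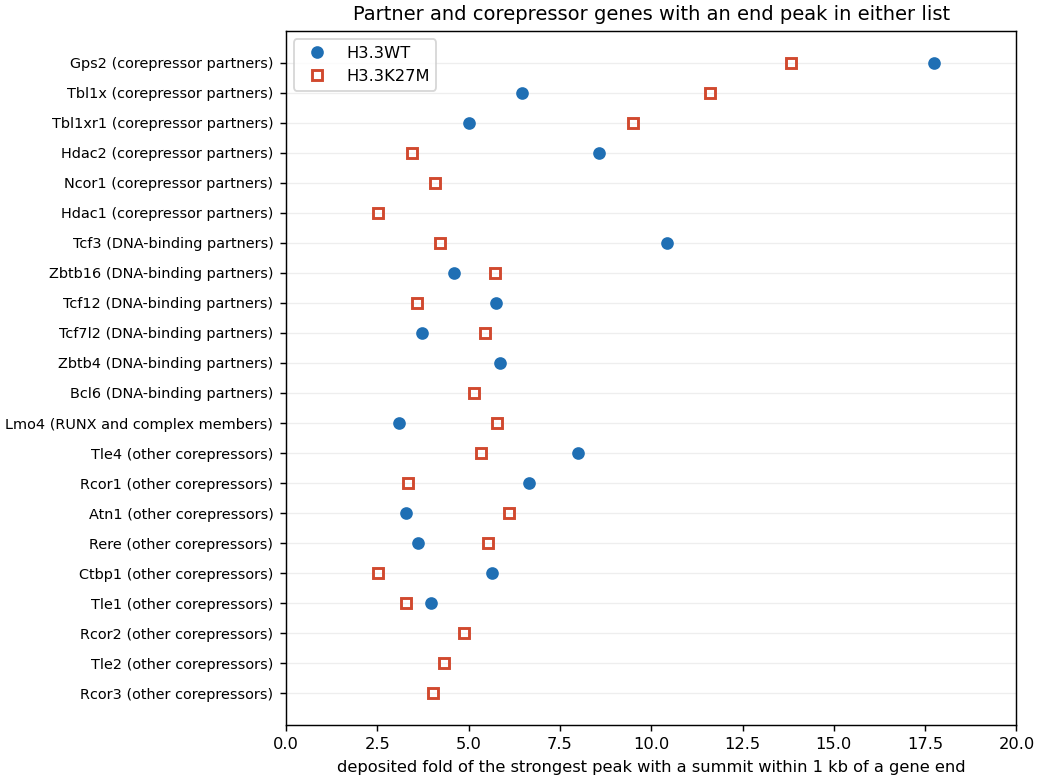
Deposited fold of the strongest peak with a summit within 1 kb of an end of each partner or corepressor gene (horizontal axis), H3.3WT as filled blue circles and H3.3K27M as open red squares; the 22 genes with a peak in either list are drawn. Gps2 has the highest fold in both lists, 17.8 and 13.8.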

How the data were processed

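CBFA2T2 ChIP-seq peak lists of 2 libraries were used, grouped by the genotype and antibody in the labels. Per the submitters' processing notes, Trim Galore was used for trimming, MACS2 for peak calling and mm10 as the build. Neither versions nor the aligner nor caller settings are given in the sources used here. The deposited peak names state that each list compares 1 ChIP library with an input. The deposited columns are fold enrichment (a ratio over local background), −log10 p, −log10 q, a summit offset and a score, which is 10 times −log10 q and was not used. The smallest deposited −log10 q was 1.33 in H3.3WT and 1.31 in H3.3K27M, so sites under that level are missing and a list can lack a site that the other has. A library with more reads can yield more peaks, and the part of depth in the lengths of these 2 lists was not tested.

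Gene spans and promoter windows came from RefSeq (GRCm38.p6). Of the 3 genes 2 had promoter windows. Coordinates are 1-based. A gene counted as marked at an end if a summit lay within 1 kb. Peaks overlapping by at least 1 bp were shared. Pileup and background were solved from fold and −log10 p with a pseudocount of 1, and background steps gave input reads in windows of the fragment length (279 and 286 bp), 1 kb or 10 kb. This assumes the caller's formula and was chosen after the files were seen. The method was tested on simulated data, where 300 of 300 pileups were recovered. These data were built with the same formula, so they checked the solving step only. They could not show whether the deposited values follow that formula, and background steps and fragment lengths were not simulated. By the background values solved from the deposited lists, the H3.3K27M ChIP library had 1.19 times the reads of the H3.3WT one, and its input 0.922 times. Absolute read numbers were not derived. Ratios of 2 counts have 95% exact intervals. All intervals cover counting error only, and reads without molecular identifiers are not independent molecules.

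The members and lists were chosen with earlier results of these data known. Named genes are the members, pseudogenes named after them, genes at or nearest to the peaks of their windows, the 3 genes most like each member, and up to 3 per partner list by summed fold. Genes flanking the windows, Gm52564 and unmarked partners were named after their values were seen. Some genes that the rule picked are left out of the text. The planned comparison of protein and peak sequences was not made, since no protein or genome sequence was used here. Alternatives were other peak thresholds, list lengths, windows, overlap criteria and scaling. Python 3.11.15, pandas 2.3.3, numpy 2.4.6, scipy 1.17.1 and matplotlib 3.10.9 were used.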

Additional observations from a re-analysis of the deposited data

How the results depend on the processing

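Of 47 alternatives tried, 37 left a count within 1.5 times of the reported one or a ratio within its interval, and 10 moved a count further. Changes of up to 1.5 times include those at Cbfa2t2 from 2 to 3 (H3.3WT) and from 5 to 7 (H3.3K27M) with a window of 100 kb, and of the shared H3.3WT peaks from 3 to 2 with a window of 10 kb or summits within 200 bp. The 5 H3.3K27M peaks at Cbfa2t2 became 3 at −log10 q of at least 5, 2 at 5 fold or more, and 3 when both lists were cut to equal length. Both internal Cbfa2t2 peaks lie above these thresholds in each list. The 2 H3.3WT peaks at Runx1t1 became 1 at −log10 q of at least 5, 1 at 5 fold or more and 1 with a window of 10 kb, and the 2 H3.3K27M peaks became 1 with that window. A window of 100 kb reached 2 peaks around Cbfa2t3 in each list, those at Cdt1 and Acsf3, and raised the shared H3.3WT peaks from 3 to 6. Scaling pileups to the median of shared peaks, an alternative chosen after seeing the data, left each ratio within its interval. Depth limits the weaker peaks, whose summits rest on 14 to 40 fragments. No paired analysis was possible because each genotype has 1 library.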
